A study of Homo sapiens with 11 samples.

Results

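MYC and the ribosome biogenesis factors are a set of 34 genes: the transcription factor MYC and 33 genes whose products act in the nucleolus to make ribosomes. Members were the probes annotated to these symbols on the expression array, with the older names NOL5A, NOL5 and NOL1 accepted for NOP56, NOP58 and NOP2. In all, 31 of the 34 symbols had a probe, and these 31 genes carried 48 of the 41000 probes of the array. GNL3, POLR1C and EBNA1BP2 were not matched to a probe and were not analysed here. All 48 probes were above background in all 11 samples, so that all 31 genes entered the fit of 17373 genes.

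The samples were RNA of CCRF-CEM, an established human T cell acute lymphoblastic leukemia line, and of sublines of it that were made resistant to the proteasome inhibitor bortezomib (BTZ). Untreated parental cells (CEM/WT, 2 samples) and parental cells after 24 h in 7 nM BTZ (CEM/WT_BTZ, 3 samples) were set beside the resistant subline CEM/BTZ7 under 7 nM BTZ (3 samples), CEM/BTZ100 under 100 nM (1 sample), CEM/BTZ200 under 200 nM (1 sample) and CEM/BTZ-200, a CEM/BTZ200 culture grown without the drug (1 sample). For the resistant sublines, the methods of the study describe a week without BTZ before a 24 h exposure, whereas the sample labels describe continued culture in BTZ with a refreshment 24 h before RNA extraction. The time of CEM/BTZ-200 off the drug is several weeks in the methods and several months in the labels. No source used here says whether numbered replicates came from separate cultures. The spread behind the p-values may therefore be technical. Every subline derives from the same parental line, and each resistance level is represented by 1 subline.

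MYC is a basic helix-loop-helix leucine zipper protein that binds DNA with its partner MAX, with a preference for the sequence CACGTG, called the E-box. Among the genes it is known to activate are many that build ribosomes: RNA polymerase I and its cofactors, which transcribe ribosomal RNA (rRNA), the small nucleolar ribonucleoproteins (snoRNPs), which guide chemical modification of rRNA, and the factors that cut, fold and export the small and large subunit precursors. In T cell acute lymphoblastic leukemia, MYC is known as a main target of NOTCH1 signalling.

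To show what the promoters of the set hold, 300-base windows (250 bases before and 50 after the annotated start, RefSeq, GRCh38.p14) were searched for CACGTG, which reads the same on both strands. Windows were given for 27 of the 34 genes, and TCOF1, RRS1, NOLC1, MYC, NOP58, BOP1 and RRP12 were not in the table. The motif was in at least 1 window of 14 of these 27 genes (51.9%), against 8.77% of all 27305 genes with a window and 11.4% of the 13714 such genes that were measured here. By window, it was in 15 of 34 (44.1%), against 7.26% of all 35116. Of the members with the motif, 6 were called in the first or the second comparison below, and they are printed here to show where it lies, as 30 bases of the gene's strand, 5′ to 3′, centred on the motif, which is in capitals.
FBL: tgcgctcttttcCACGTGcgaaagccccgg
RRP9: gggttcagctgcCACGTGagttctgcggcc
PUS7: gtcgctgcgccgCACGTGtgcgagcccggc
BYSL: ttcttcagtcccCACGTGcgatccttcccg
LYAR: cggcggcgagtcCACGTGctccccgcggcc
RCL1: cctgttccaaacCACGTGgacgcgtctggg

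The stretch of FBL is chr19:39846356-39846385 on the minus strand, with the motif starting at base 7 of the transcript. In PUS7 (chr7:105522226-105522255, minus strand) and BYSL (chr6:41921515-41921544, plus strand) the motif starts at base 29, and in RCL1 (chr9:4792936-4792965, plus strand) at base 5. In RRP9 (chr3:51941892-51941921, minus strand) it spans the start, 5 bases before it, and in LYAR (chr4:4290068-4290097, minus strand) it begins 64 bases before the start and is in 1 of 2 windows of the gene. The motif was in 5 of 9 members with a window that were called lower after BTZ in CEM/WT and in 7 of 15 that were measured and not called. For members higher in CEM/BTZ7 at equal dose, it was in 5 of 14 with a window, and in 7 of 10 that were measured and not called higher. A match describes these letters only, and binding of MYC was not measured.

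Levels below are log2 of the quantile-normalized intensity, taken from the brightest probe of each gene, and fold changes come from a fit of the 6 groups with the dye as a term (limma), with Benjamini-Hochberg adjustment of p across the 17373 genes. A gene is called at an adjusted p under 0.05. Levels of different genes come from different probes and are not compared. Per sample, 73.8% to 89% of probes were above background. Of 15 T lymphoblast markers, 14 were above background in all samples, with a summed linear intensity of 98536 to 135949 in CEM/WT, 47252 to 59803 in CEM/WT_BTZ and 125782 to 146315 in CEM/BTZ7. This sum moved with the members. Of 6 B cell markers, CD79A, CD79B and PAX5 were above background in all samples. The summed level was 9800 to 13371 in CEM/WT, 17320 to 36935 in CEM/WT_BTZ and 5294 to 8822 in CEM/BTZ7. Most of it was CD79A, at log2 levels of 13.18 and 13.62 in CEM/WT, 14.05 to 15.16 in CEM/WT_BTZ and 12.23 to 13.03 in CEM/BTZ7. After BTZ, the log2 fold changes of the 4 measured B cell markers ran from -1.67 to 1.21, the latter in CD79A. The myeloid marker sum was 1557 to 1883 in CEM/WT and 640 to 646 in CEM/WT_BTZ and 570 to 2596 in CEM/BTZ7, a range that overlaps both, with 5 of 8 markers above background in all samples, and the epithelial marker sum was 2563 to 3000 in CEM/WT, 4701 to 7768 in CEM/WT_BTZ and 4544 to 6064 in CEM/BTZ7, with 5 of 6 above background. EPCAM had log2 levels of 6.11 and 6.18 in CEM/WT, 5.65 to 6.14 in CEM/WT_BTZ and 11.37 to 11.83 in CEM/BTZ7. It was thus a large part of the epithelial sum in CEM/BTZ7 and a small part in CEM/WT_BTZ. Against CEM/WT, its log2 fold change was 5.47 in CEM/BTZ7 (adjusted p = 0.000335, limma). It was 3.16 to 4.65 in the resistant groups of 1 sample. The part of these markers in the results was not tested. The level of an mRNA per cell and the number of cells that hold it cannot be told apart in RNA of a whole culture.

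The first question was how the parental cells respond to the drug. After 24 h in 7 nM BTZ, MYC mRNA and 11 ribosome biogenesis genes fell in CEM/WT, and no member rose. The 12 of 31 members called lower (38.7%) stand beside 9.01% of all genes called lower, and the 0 called higher beside 6.49%. Their log2 fold changes ran from -2.14 in MYC, 4.39-fold lower, to -0.74 in RCL1, 1.67-fold lower. Over all 31 members the median log2 fold change was -0.74, beside -0.02 over all genes, and 17.2% of all genes had a log2 fold change below the members' median. In 27 members, all 3 CEM/WT_BTZ samples lay below both CEM/WT samples, which was so for 25% of all genes, and in NOP58 all lay above, as in 21.3% of all genes. With the replicate number as a block, 22 members were called lower and none higher, beside 20.7% of all genes called lower. These block results depend on the numbering of the CEM/BTZ7 samples, which is uncertain: with the numbers of the other deposited table, the block left 1 call, that of FBL, beside 1.54% of all genes called lower. Leaving out CEM/WT replicate 1 left 0 calls, leaving out CEM/WT replicate 2 left 2, and leaving out either CEM/WT_BTZ replicate 1 or CEM/BTZ7 replicate 2 left 7. The shares of all genes called in these fits are not given here, so whether other genes lost calls alike cannot be read from these counts.

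MYC had log2 levels of 14.56 and 13.84 in the CEM/WT samples and 12.11, 12.01 and 12.12 in CEM/WT_BTZ. The 3 exposed samples lay close together and far below both untreated samples. The log2 fold change was -2.14 with a standard error (SE) of 0.26 (adjusted p = 0.00616), and its adjusted p was 0.0690 without CEM/WT replicate 1. This probe was printed as 10 spots on each array.

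MYC also had 2 dimmer probes of 1 spot each that did not fall. One, with a mean log2 level of 8.94, gave a log2 fold change of 0.09 (SE 0.42), and the other, with a mean of 6.23, gave 0.35 (SE 0.23), against a mean of 14.02 for the probe used. With the mean of the 3 probes in place of the brightest, the log2 fold change of MYC was -0.56 (adjusted p = 0.112). The call for MYC rests on its brightest probe.

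**Figure D1:**
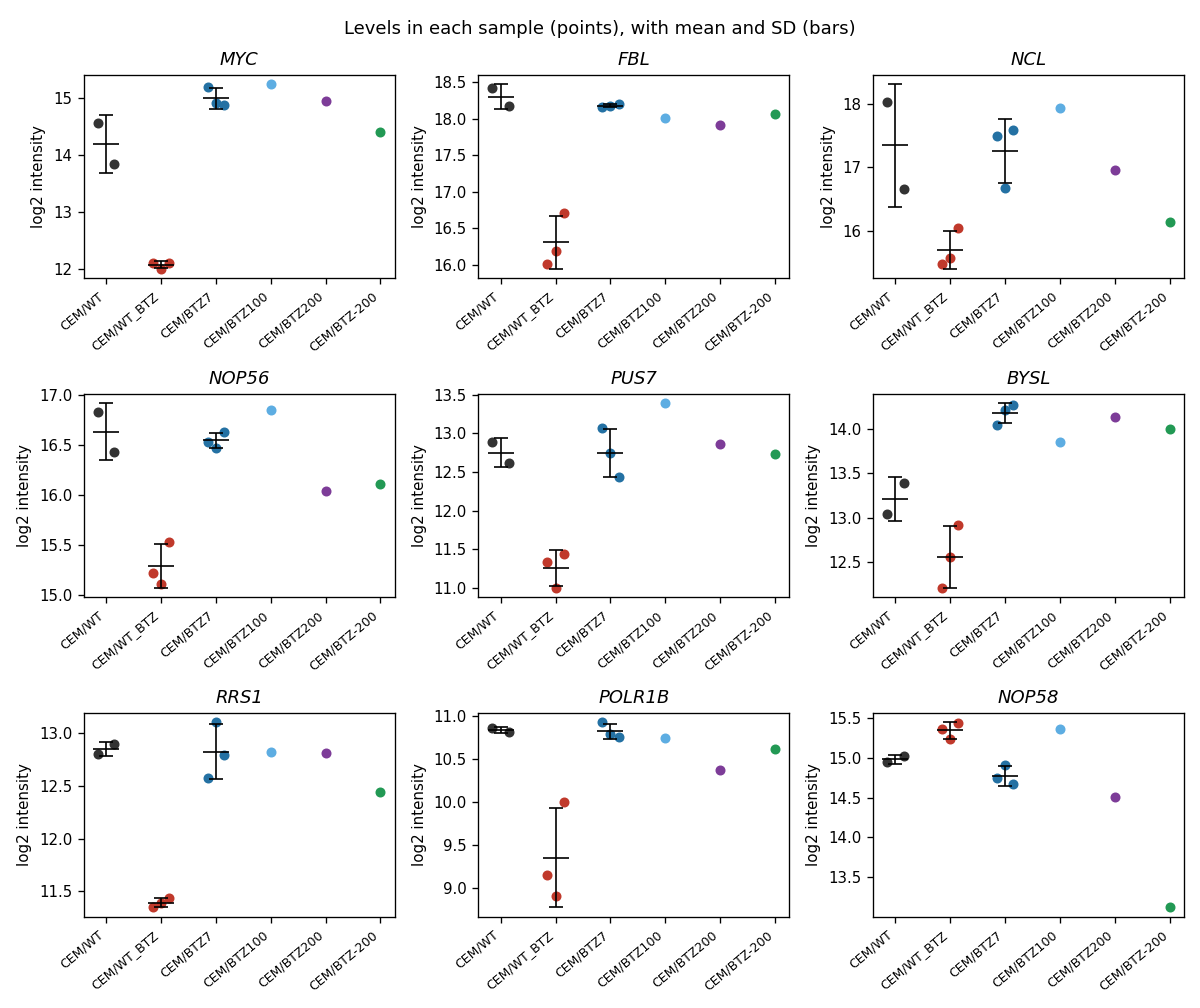
Log2 intensity (vertical axis) of 9 members in each sample (points) of the 6 groups (horizontal axis), with the mean and SD of groups of 2 or 3 samples as bars. CEM/WT_BTZ lies below every other sample for all genes shown except NOP58, which has its lowest value, 13.12, in CEM/BTZ-200.

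Next were the core proteins of the box C/D and box H/ACA snoRNPs, taken with the snoRNP chaperone NOLC1. Of these 5 genes, 3 fell. Fibrillarin (FBL), the enzyme that methylates rRNA in box C/D particles, had levels of 18.42 and 18.18 in CEM/WT and 16.02, 16.19 and 16.72 in CEM/WT_BTZ. The groups were separated by more than the range within either, and the log2 fold change was -1.97 (SE 0.25, adjusted p = 0.00656). Under 75th percentile scaling FBL was not called, and over all alternatives its log2 fold change ranged from -2.25 to -1.08. NOP56, another box C/D core protein, had 16.83 and 16.43 before and 15.22, 15.11 and 15.54 after exposure, a log2 fold change of -1.34 (SE 0.23, adjusted p = 0.0142). DKC1, the pseudouridine synthase of box H/ACA particles, had 14.68 and 14.13 before and 13.43, 13.25 and 13.51 after (log2 fold change -1.01, SE 0.24, adjusted p = 0.0386).

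NOP58, the box C/D partner of NOP56, went the other way in every sample. It had 14.94 and 15.02 in CEM/WT and 15.36, 15.23 and 15.43 in CEM/WT_BTZ, with a log2 fold change of 0.39 that was not called (SE 0.17, adjusted p = 0.190). It was the sole member with a log2 fold change above 0. NOLC1, a nucleolar chaperone of snoRNPs, had 14.13 and 13.65 in CEM/WT and 12.74, 12.39 and 13.34 in CEM/WT_BTZ (log2 fold change -1.03, adjusted p = 0.0757), which was called with the replicate block (adjusted p = 0.0248).

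Among the abundant nucleolar proteins, 1 of 4 was called. LYAR, a nucleolar zinc finger protein, had 13.31 and 12.69 in CEM/WT and 11.99, 11.57 and 12.16 in CEM/WT_BTZ, a log2 fold change of -1.10 (SE 0.28, adjusted p = 0.0468). Nucleolin (NCL), which binds nascent rRNA precursors, had 18.03 and 16.66 in CEM/WT, a gap of over a log2 unit, and 15.48, 15.57 and 16.04 in CEM/WT_BTZ. Its log2 fold change of -1.71 (SE 0.46) missed the threshold at an adjusted p of 0.0530, and was called with the replicate block (adjusted p = 0.0289). Nucleophosmin (NPM1), which shuttles ribosomal precursors between nucleolus and cytoplasm, had 16.80 and 16.60 in CEM/WT and 15.83, 15.73 and 16.26 in CEM/WT_BTZ (log2 fold change -0.71, SE 0.23, adjusted p = 0.0909).

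Of the RNA polymerase I group, POLR1B, the second largest subunit of the enzyme, fell. It had 10.86 and 10.81 in CEM/WT and 9.15, 8.90 and 10.00 in CEM/WT_BTZ, with a log2 fold change of -1.43 (SE 0.29, adjusted p = 0.0233). All exposed samples were below both untreated ones, and replicate 3 was the least changed. POLR1A, the largest subunit (-0.42), and TCOF1, an rDNA transcription cofactor also named treacle (-0.58), were not called.

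Of 9 factors of the large subunit, 3 fell. BOP1, a part of the complex with PES1 and WDR12 that processes the large subunit rRNA, had 14.31 and 14.58 in CEM/WT and 12.27, 13.06 and 13.13 in CEM/WT_BTZ (log2 fold change -1.59, SE 0.30, adjusted p = 0.0204). Its partners WDR12 (-0.64) and PES1 (-0.27) were not called, with adjusted p-values of 0.113 and 0.630. NOP16, a nucleolar protein that in yeast belongs to large subunit precursors, had 15.01 and 15.17 before and 13.26, 13.66 and 13.73 after exposure (log2 fold change -1.52, SE 0.24, adjusted p = 0.0113).

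RRS1, which in yeast helps to bring the 5S ribonucleoprotein into the large subunit precursor, had 12.81 and 12.90 in CEM/WT and 11.35, 11.39 and 11.43 in CEM/WT_BTZ. Both groups were tight, and the log2 fold change was -1.45 (SE 0.21, adjusted p = 0.00992). The log2 fold changes of the other 6 large subunit factors ranged from -0.64 in WDR12 to -0.22 in NOP2.

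Of 8 factors of the small subunit, RRP9 and RCL1 fell. RRP9, a protein of the U3 snoRNP, had 12.79 and 13.18 in CEM/WT and 11.11, 11.72 and 11.88 in CEM/WT_BTZ (log2 fold change -1.37, SE 0.27, adjusted p = 0.0226). RCL1, an early small subunit factor, changed least of the called members (log2 fold change -0.74, SE 0.17, adjusted p = 0.0354). PUS7, a pseudouridine synthase of several RNA classes, had 12.88 and 12.61 before and 11.34, 10.99 and 11.44 after (log2 fold change -1.46, SE 0.25, adjusted p = 0.0149).

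**Figure D2:**
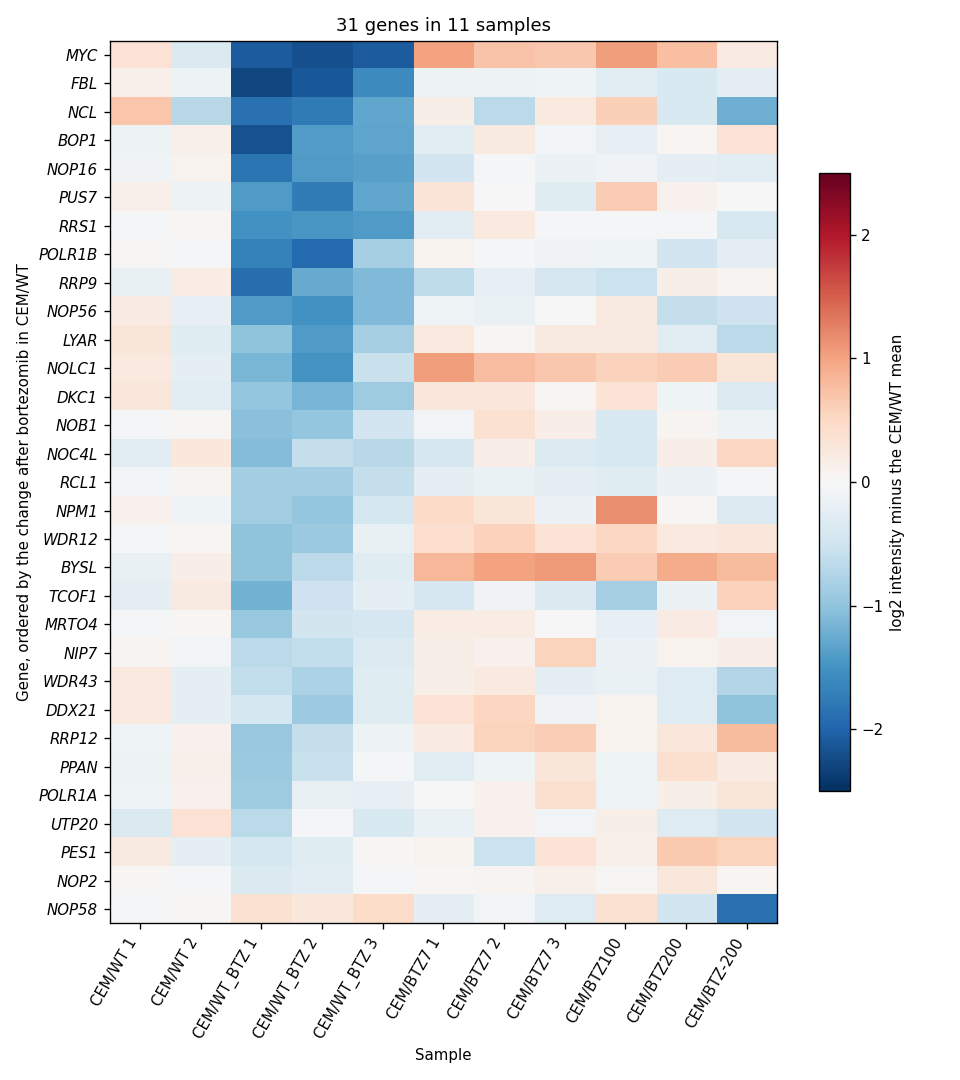
Difference of log2 intensity from the CEM/WT mean (color) for 31 genes (rows, ordered by the change after BTZ in CEM/WT) in 11 samples (columns). The 3 CEM/WT_BTZ columns are blue for nearly all genes, and NOP58 in CEM/BTZ-200 is the darkest cell outside them.

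The sample medians show the same picture for the set as a whole. Relative to the CEM/WT mean, the members' median level was -1.01, -0.92 and -0.48 in CEM/WT_BTZ replicates 1, 2 and 3. The all-gene medians of these samples were -0.07, -0.01 and -0.05. In the CEM/BTZ7 samples the members' medians were 0.079, 0.10 and -0.0014, in CEM/BTZ100 0.04, in CEM/BTZ200 0.04 and in CEM/BTZ-200 -0.03. CEM/WT_BTZ replicate 3, the Cy5-labelled sample of its group, was nearest to the untreated cells.

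The second question was how CEM/BTZ7 and parental cells differ under the same dose of BTZ. The paper reports mutations in the resistant cells in PSMB5, the gene of the proteasome subunit that BTZ inhibits. It also gives 7 nM as the dose on which CEM/BTZ7 normally grows. An equal dose need not be equal inhibition of the proteasome, which was not measured here. At 7 nM, 19 members had higher levels in CEM/BTZ7 and 1, NOP58, a lower one, beside 12.2% of all genes called higher and 10.1% called lower. The median log2 fold change of the 31 members was 0.92, beside 0.01 over all genes, and 12.4% of all genes lay above it. In 26 members all CEM/BTZ7 samples were above all CEM/WT_BTZ samples, which was so for 22.7% of all genes, and in NOP58 they were all below, as in 19.9%. This comparison uses the same 3 CEM/WT_BTZ samples as the first, so its reversed sign is not a second, independent result. Scaling each array to its 75th percentile left 12 calls (11 higher and 1 lower). Leaving out a replicate left 11 calls in the case of CEM/WT_BTZ 1, 12 for CEM/WT_BTZ 2, 9 for CEM/BTZ7 2 and 6 for CEM/BTZ7 3. For the scaling and these fits the shares of all genes called are not given here, so the counts have no baseline.

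MYC had levels of 15.20, 14.91 and 14.87 in CEM/BTZ7, all above every parental sample, exposed or not. Against CEM/WT_BTZ the log2 fold change was 2.95 (SE 0.24, adjusted p = 0.00140), 7.73-fold higher. Its 2 dimmer probes gave -0.78 and 0.59 with adjusted p-values over all probes of 0.225 and 0.118, and the mean of the 3 probes gave 0.92 (adjusted p = 0.0179).

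FBL had 18.17, 18.17 and 18.20 in CEM/BTZ7, a narrow range at the level of the lower CEM/WT sample. It was 3.54-fold higher than in CEM/WT_BTZ (log2 fold change 1.82, SE 0.23, adjusted p = 0.00415). Under 75th percentile scaling FBL was not called (adjusted p = 0.160), and over all alternatives its log2 fold change ranged from 0.64 to 2.11. NOLC1 had 14.94, 14.66 and 14.57, above both parental groups, and was 3.52-fold higher (log2 fold change 1.82, SE 0.29, adjusted p = 0.00878). NCL had 17.50, 16.68 and 17.59 and was 3.21-fold higher (log2 fold change 1.68, SE 0.42, adjusted p = 0.0348). The lowest of these 3 NCL values was close to the lower CEM/WT sample.

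BYSL, bystin, a factor of small subunit maturation, had 13.04 and 13.39 in CEM/WT, 12.21, 12.55 and 12.91 in CEM/WT_BTZ and 14.05, 14.22 and 14.27 in CEM/BTZ7. The CEM/BTZ7 samples lay above all parental samples, and the log2 fold change against CEM/WT_BTZ was 1.54 (SE 0.22, adjusted p = 0.00633). The smaller fall in the parental cells (-0.62) was not called (adjusted p = 0.138), though it was with the replicate block (adjusted p = 0.0167).

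BOP1 had 14.17, 14.67 and 14.37 in CEM/BTZ7 and was 2.83-fold higher than in CEM/WT_BTZ. PUS7, with 13.06, 12.74 and 12.44, was 2.69-fold higher, and RRS1, with 12.58, 13.10 and 12.79, was 2.66-fold higher. POLR1B had 10.92, 10.79 and 10.76 and was 2.55-fold higher. In each of these 4 genes the CEM/BTZ7 samples spanned the range of the CEM/WT samples, and lay apart from CEM/WT_BTZ.

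NOP16 had 14.61, 15.03 and 14.94 in CEM/BTZ7, a log2 fold change of 1.28 against CEM/WT_BTZ, and LYAR had 13.24, 13.03 and 13.22, a log2 fold change of 1.27. NOP56 had 16.53, 16.47 and 16.63 (1.26), and DKC1 had 14.70, 14.68 and 14.43 (1.20). Their adjusted p-values ranged from 0.00988 in NOP56 to 0.0185 in LYAR.

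WDR12 had 12.58 and 12.66 in CEM/WT, 11.62, 11.70 and 12.44 in CEM/WT_BTZ and 13.04, 13.20 and 12.97 in CEM/BTZ7 (log2 fold change against CEM/WT_BTZ 1.03, adjusted p = 0.0191). RRP12, which in yeast acts in the export of both subunit precursors, had 10.99 and 11.22, then 10.16, 10.52 and 10.97, then 11.30, 11.65 and 11.72 in the same order (0.94, adjusted p = 0.0456). NOB1, the endonuclease that makes the mature end of 18S rRNA, had 12.80 and 12.86, then 11.78, 11.86 and 12.35, then 12.76, 13.21 and 13.00 (0.92, adjusted p = 0.0285). In all 3 genes the third CEM/WT_BTZ replicate was the highest of its group.

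RRP9, with 12.36, 12.79 and 12.56 in CEM/BTZ7, was higher than in CEM/WT_BTZ and below both CEM/WT samples (log2 fold change 0.91, SE 0.25, adjusted p = 0.0474). NPM1 had 17.18, 17.01 and 16.54 (0.86, adjusted p = 0.0339), and its highest CEM/BTZ7 values were above both CEM/WT samples. NIP7, a factor of rRNA processing, had 12.51 and 12.38 in CEM/WT, 11.77, 11.83 and 12.11 in CEM/WT_BTZ and 12.59, 12.55 and 13.01 in CEM/BTZ7 (0.85, adjusted p = 0.0341).

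NOP58 had 14.75, 14.91 and 14.67, all below every parental sample, with a log2 fold change of -0.61 (SE 0.16, adjusted p = 0.0400).

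Across both comparisons 11 members were called lower after BTZ and higher in CEM/BTZ7 under the drug: MYC, FBL, NOP56, NOP16, DKC1, POLR1B, RRP9, RRS1, BOP1, PUS7 and LYAR. RCL1 was called in the first direction only, and NCL, NPM1, NOLC1, RRP12, WDR12, NIP7, BYSL and NOB1 in the second only. The remaining 11 members were NOP58 and 10 genes called in neither: NOP2, POLR1A, PES1, WDR43, UTP20, NOC4L, PPAN, MRTO4, TCOF1 and DDX21. These 10 had log2 fold changes of -0.75 to -0.22 after BTZ. The grouping holds for the fit without the replicate block. How many of all genes were called in both directions was not computed, with or without the block, so these counts have no baseline. Taken singly, 9.01% of all genes were called lower after BTZ and 12.2% higher in CEM/BTZ7 without the block. Both comparisons also use the same CEM/WT_BTZ samples. With the block 21 members were called in both directions, these 11 and RCL1, NCL, NOLC1, RRP12, WDR12, NIP7, BYSL, NOB1, NOC4L and PPAN, and 6 in neither. With CEM/BTZ7 numbered as in the other table, RCL1 and LYAR lost the first call and NCL, NOP58 and RRP9 the second, without the block.

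**Figure D3:**
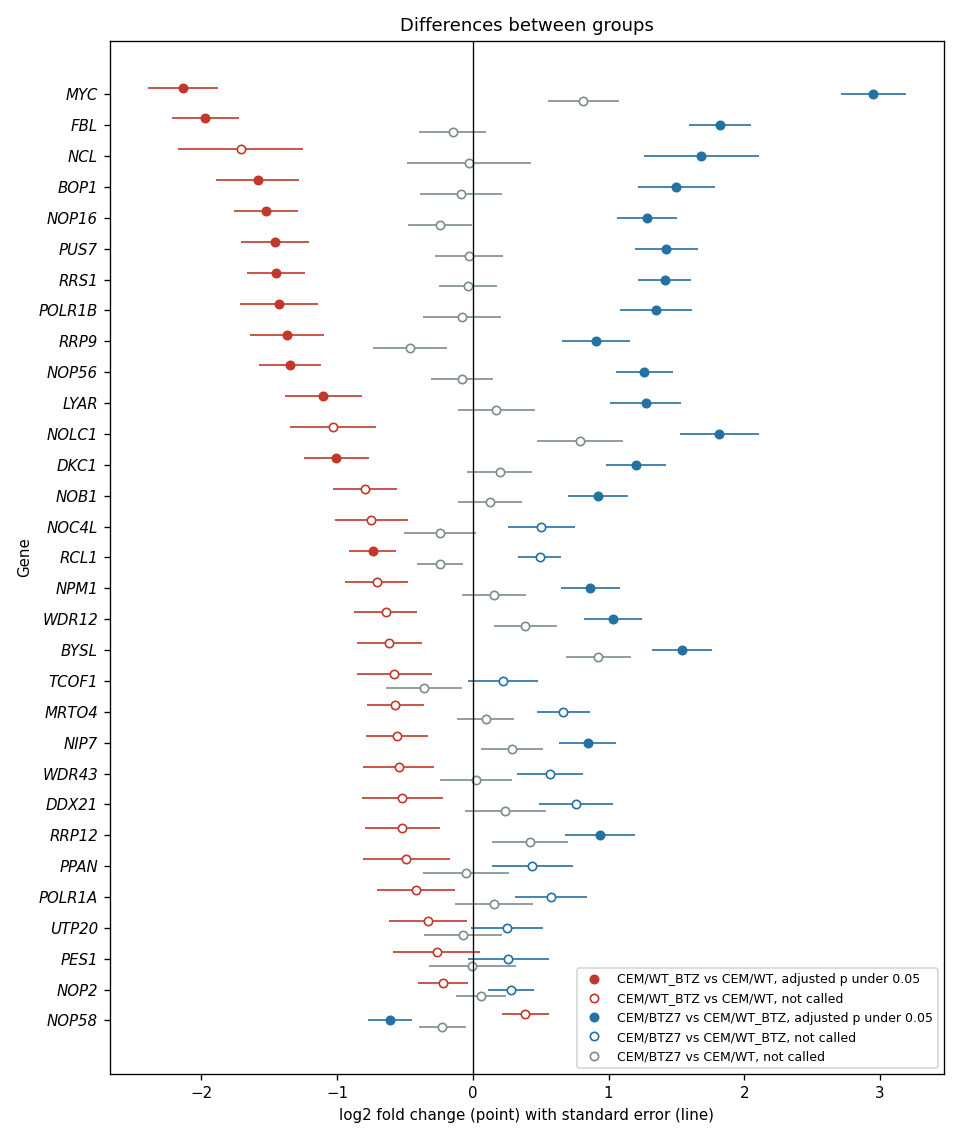
Log2 fold change (horizontal axis, point) with its standard error (line) of 31 genes (vertical axis) in 3 comparisons. Filled points have an adjusted p under 0.05. The red and blue points lie on opposite sides of 0 for every gene, and the gray points of CEM/BTZ7 against untreated CEM/WT are all open.

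Whether CEM/BTZ7 under the drug differed from untreated parental cells was asked next. No member was called by limma, while 3.45% of all genes were (1.91% higher), and 3 members (9.68%) had an unadjusted p under 0.05, beside 14.9% of all genes. With the replicate block 1 member was called, BYSL, which was higher (log2 fold change 0.82, adjusted p = 0.0371), beside 4.08% of all genes called higher, and with CEM/BTZ7 numbered as in the other table its adjusted p was 0.320. Without the block the 3 largest differences were those of BYSL (0.92, SE 0.24, adjusted p = 0.118), MYC (0.81, SE 0.26, adjusted p = 0.203) and NOLC1 (0.79, SE 0.32, adjusted p = 0.316). The median over the members was -0.01, beside -0.04 over all genes. In 6 members (MYC, NOLC1, RRP12, WDR12, NIP7 and BYSL) every CEM/BTZ7 sample was above both CEM/WT samples, and in 3 (NOP58, RRP9 and RCL1) every one was below, which was so for 17% and 16.4% of all genes. A missed threshold does not show that the levels were equal, and the SE of these log2 fold changes was between 0.17 and 0.46.

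**Figure D4:**
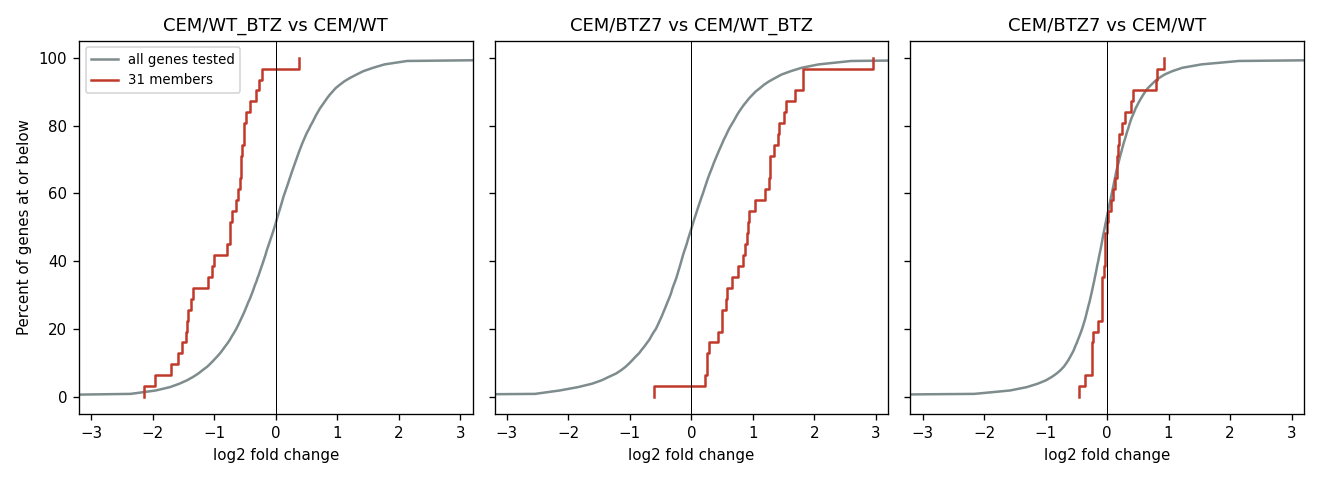
Percent of genes (vertical axis) at or below a log2 fold change (horizontal axis) for the 31 members (red) and for all 17373 genes (gray) in 3 comparisons. The members' curve lies to the left of that of all genes after BTZ (median -0.74), to the right in CEM/BTZ7 against CEM/WT_BTZ (median 0.92), and close to it in CEM/BTZ7 against CEM/WT (median -0.01).

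The sublines with higher resistance had 1 sample each, and their tests borrow the spread of the replicated groups. In CEM/BTZ100 against CEM/WT no member was called (2.59% of all genes were), with a median of 0.06. NPM1 showed the largest difference there, with a level of 17.86 and a log2 fold change of 1.32 (SE 0.32, adjusted p = 0.110), followed by MYC at 15.25 (1.00, adjusted p = 0.273). In CEM/BTZ200 against CEM/WT no member was called (1.23% of all genes were called higher and 1.77% lower), the median was 0.17, and BYSL at 14.14 had the largest difference (1.05, SE 0.33, adjusted p = 0.206).

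MYC levels in the drug-exposed sublines were thus 14.87 to 15.25, above the 14.56 and 13.84 of untreated parental cells, and in the drug-free CEM/BTZ-200 14.40, between them. Ordered by mean, MYC was lowest in CEM/WT_BTZ (12.08), then CEM/WT (14.20), CEM/BTZ-200 (14.40), CEM/BTZ200 (14.95), CEM/BTZ7 (14.99) and CEM/BTZ100 (15.25). The single samples of CEM/BTZ-200 and CEM/BTZ200 lay within the range of the group next to them in this order, CEM/WT and CEM/BTZ7. None of the differences among the 5 groups above CEM/WT_BTZ that were tested was called.

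In CEM/BTZ-200 against CEM/WT 1 member was called, beside 3.07% of all genes (1.31% higher and 1.76% lower). NOP58 was lower, at 13.12 against 14.94 and 15.02, with a log2 fold change of -1.93 (SE 0.24, adjusted p = 0.0176). This was the lowest NOP58 level of all 11 samples, and it rests on a single sample. The call was lost without CEM/WT replicate 1, CEM/WT replicate 2 or CEM/BTZ7 replicate 2. DDX21, a nucleolar RNA helicase, was at 12.22 there (log2 fold change -1.11, adjusted p = 0.217) and NCL at 16.13 (-1.03, adjusted p = 0.474).

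To compare the 200 nM subline on and off the drug, CEM/BTZ200 was set against CEM/BTZ-200. No member was called, while 0.317% of all genes were (0.023% higher). NOP58 had the largest log2 fold change, 1.52 (SE 0.30, adjusted p = 0.142), with levels of 14.51 and 13.12. The dyes of these samples differ, and each group has 1 sample. For MYC the log2 fold change was 0.44, with levels of 14.95 and 14.40. The difference between the drug effect in parental cells and that in this subline was tested as 1 term across all genes: 0 of 31 members and 13 of 17373 genes were called by limma, while 18 members (58.1%) and 12.7% of all genes had an unadjusted p under 0.05.

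**Figure D5:**
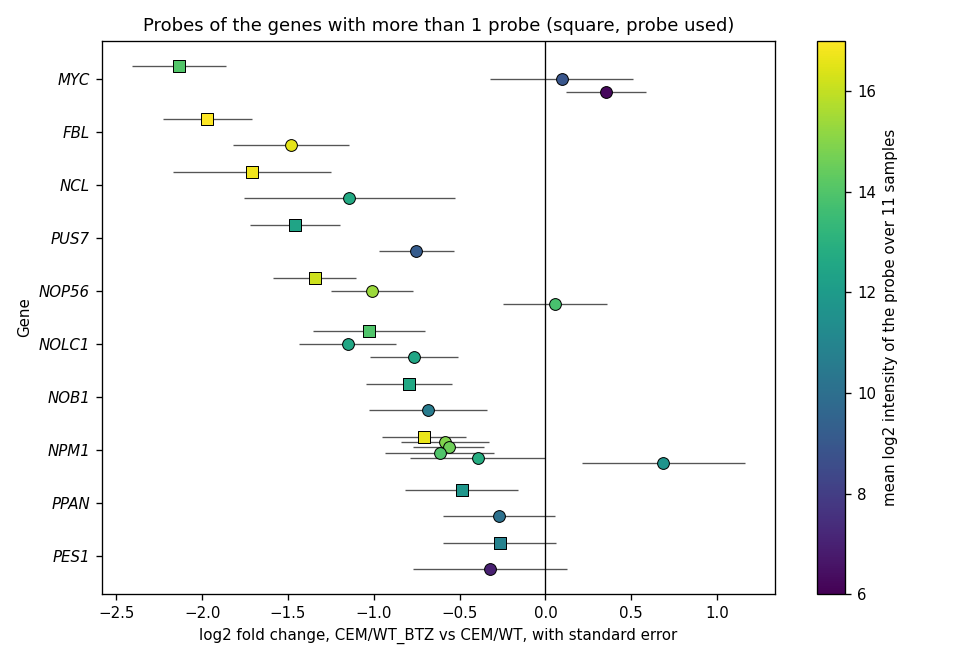
Log2 fold change after BTZ in CEM/WT (horizontal axis) with its standard error for each probe of the 10 members with more than 1 probe (vertical axis), colored by the probe's mean log2 intensity. In MYC, NOP56 and NPM1 at least 1 dimmer probe (circle) lies above 0 while the probe used (square) lies below.

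Of the 10 members with more than 1 probe, 3 had probes that differed in sign after BTZ: MYC, NOP56 and NPM1. Over all members, including those with 1 probe, 43 of 48 probes had a log2 fold change below 0. The exceptions were the single NOP58 probe, the 2 dim MYC probes, 1 of 3 NOP56 probes (0.05) and 1 of 6 NPM1 probes, the dimmest (0.69). In NOP56 the 2 brighter probes gave -1.34 and -1.01, and in NPM1 the 5 others ranged from -0.71 to -0.39. NPM1 and other abundant nucleolar genes have processed pseudogenes, and whether these probes also read such copies was not tested.

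The genes around the set were described from lists that leave out the members. Their counts stand beside 6.49% of all genes called higher and 9.01% called lower after BTZ, and 12.2% higher and 10.1% lower in CEM/BTZ7 at equal dose. In the MYC network (14 genes measured), MXD1, which competes with MYC for MAX, rose after BTZ in CEM/WT. It had 8.93 and 9.33 in CEM/WT, 12.05, 12.11 and 11.66 in CEM/WT_BTZ and 9.36, 9.44 and 9.02 in CEM/BTZ7, so that the exposed parental samples stood apart from both other groups. The log2 fold change was 2.83 after BTZ (SE 0.25, adjusted p = 0.00332) and -2.70 in CEM/BTZ7 against CEM/WT_BTZ (SE 0.24, adjusted p = 0.00164). MYCBP, a MYC-binding protein, moved with MYC (-1.27, then 1.12). MYCN had 12.37 and 12.32 in CEM/WT, 14.61, 13.93 and 13.24 in CEM/WT_BTZ, and fell to 12.49, 11.81 and 11.28 in CEM/BTZ7 (against CEM/WT_BTZ -2.04, adjusted p = 0.0249). Its log2 fold change of 1.57 after BTZ was not called (adjusted p = 0.0827). In all, 1 gene of this list rose and 2 fell after BTZ, and at equal dose 1 was higher and 2 lower in CEM/BTZ7.

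Of 13 measured genes of MYC protein turnover, SKP2, a ubiquitin ligase subunit that binds MYC, fell after BTZ (log2 fold change -1.01, adjusted p = 0.0215) and was higher in CEM/BTZ7 at equal dose (0.96, adjusted p = 0.0147). FBXO32, another ubiquitin ligase subunit, did the opposite (0.85, adjusted p = 0.0309, then -1.31, adjusted p = 0.00498). No other gene of the list was called in either comparison.

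Next were known MYC targets outside ribosome biogenesis. Of 24 measured, 10 were lower and none higher after BTZ (median log2 fold change -0.91), and at equal dose 13 were higher and none lower in CEM/BTZ7 (1.21), beside 9.01% of all genes lower in the first and 12.2% higher in the second comparison. TERT, the catalytic subunit of telomerase, had 11.33 and 11.45 in CEM/WT, 9.22, 9.40 and 8.81 in CEM/WT_BTZ and 12.69, 12.92 and 13.39 in CEM/BTZ7. It fell by 2.31 on the log2 scale after BTZ, and was higher in CEM/BTZ7 than in untreated CEM/WT as well (1.67, adjusted p = 0.0154). LDHA, lactate dehydrogenase A (-2.03), and HK2, hexokinase 2 (-1.79), also fell after BTZ and were higher in CEM/BTZ7 at equal dose (1.90 and 1.86).

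The other genes of the ribosome assembly line had medians nearer to 0 after BTZ than the members. Of 17 further genes of RNA polymerase I transcription, 2 rose and 4 fell after BTZ (median -0.04), beside 6.49% and 9.01% of all genes. POLR1G, an RNA polymerase I subunit, fell (-1.54, adjusted p = 0.00718), as did POLR2L, a subunit shared by all 3 nuclear RNA polymerases (-1.54, adjusted p = 0.0166), while TAF1D, a subunit of the promoter selectivity factor, rose (1.56, adjusted p = 0.00802). In CEM/BTZ7 against CEM/WT_BTZ, 5 of this list were higher and 2 lower.

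Of 44 further small subunit processome genes, 2 rose and 4 fell after BTZ (median -0.35), and at equal dose 10 were higher and 2 lower in CEM/BTZ7 (median 0.41). The shares called after BTZ were near those of all genes, 6.49% and 9.01%, and the count of 10 stands beside 12.2%. PWP2, a processome scaffold protein, fell (-1.05, adjusted p = 0.0413), and the kinase gene RIOK3 rose (1.29, adjusted p = 0.0216). TBL3, another processome protein, was higher in CEM/BTZ7 (1.60, adjusted p = 0.0109). Of 46 further large subunit assembly genes, URB1 alone was called after BTZ (-1.27, adjusted p = 0.0228), with a median of -0.17 over the list, and at equal dose 8 were higher and none lower in CEM/BTZ7 (median 0.31), among them URB2 (1.36, adjusted p = 0.0153).

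Of 15 further genes of the box C/D and box H/ACA particles, NHP2, an H/ACA core protein that works with DKC1, was called lower after BTZ (-1.47, adjusted p = 0.0376). RUVBL1, an ATPase that helps to assemble these particles, was higher in CEM/BTZ7 at equal dose (1.14, adjusted p = 0.0329). Of 14 genes of the exosome and its cofactors, which trim rRNA precursors, EXOSC7 fell after BTZ (-1.23, adjusted p = 0.0153), and at equal dose EXOSC7 and EXOSC6 were higher in CEM/BTZ7 (1.17 and 0.87).

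Of 11 measured genes of the p53 and nucleolar stress list, 3 rose and 2 fell after BTZ, and at equal dose 3 were higher and 6 lower in CEM/BTZ7. GADD45A, a stress-induced growth arrest gene, had 9.13 and 8.32 in CEM/WT, 13.99, 13.30 and 13.43 in CEM/WT_BTZ and 10.54, 10.12 and 10.66 in CEM/BTZ7. It rose by 4.78 on the log2 scale after BTZ (adjusted p = 0.00145). PMAIP1, the pro-apoptotic factor NOXA (3.29, adjusted p = 0.00145), and SESN2, a stress-induced regulator of growth signalling (1.42, adjusted p = 0.0161), rose as well.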

How the data were processed

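The intensity table holds the processed signal of 45015 spots for 11 samples, 6 labelled with Cy3 and 5 with Cy5, as the authors deposited it from Agilent Feature Extraction, without normalization across arrays. The value table holds log2 values that the authors made with limma after background correction, using loess for each array and quantiles across arrays. Tool versions are not given in the sources used here. Pairs of samples that shared an array are not named in them either.

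Here, intensities were quantile-normalized over all spots, put on the log2 scale and averaged over spots of a probe. Probes above the 95th percentile of 153 negative controls in at least 2 samples were kept (37419 of 41000). Probe symbols came from gene identifiers for 29203 probes, from accessions for 11 and as deposited for 30, and 84 probes with more than 1 symbol and 11672 without one were not used. The brightest kept probe stood for each of 17373 genes. A model of groups and dye was fitted by limma 3.58.1 (R 4.3.3, with version 1.17.8 of the data.table package), with 4 residual and 2.40 prior degrees of freedom, 2-sided p-values and Benjamini-Hochberg adjustment. Fold changes are adjusted for the dye and differ slightly from differences of group means. The number of arrays limits the precision. The fit was also run on simulated data with independent errors, which cannot show how it handles samples of equal number that deviate alike.

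Values per sample are given for MYC, for the 18 members with the largest changes among those called in the first 2 comparisons and for members called in any other. Of each list, at most 3 called genes with the largest changes are named. Members and lists were chosen with earlier results of these data known.

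With the numbers of the intensity table, samples with equal numbers deviated alike: for 7 pairs of equal number the deviations from the group means correlated at 0.29 to 0.53, and for 14 pairs of unequal number at -0.47 to 0.07. Deviations within a group sum to 0, so these pairs are not independent, and the negative values follow in part from the positive ones. The numbers come from the sample titles, and a fit with them as a block was run. For CEM/BTZ7, intensity columns 1, 2 and 3 were closest to 2, 3 and 1 among the authors' log2 columns (Spearman correlations of 0.993, 0.995 and 0.992, against 0.969, 0.975 and 0.976), so the numbering of 1 of the 2 tables is uncertain. The dye given to each CEM/BTZ7 column, the pairing and the block all rest on the numbers of the intensity table, and fits with CEM/BTZ7 numbered by the value table were added after seeing the data. Promoter windows were read from a RefSeq table (GRCh38.p14). Alternatives were the value table, 75th percentile scaling, an offset of 50 before normalization, no dye term, 2 other filters, the mean of probes, the compared groups alone and leaving out each replicate.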

Additional observations from a re-analysis of the deposited data

How the results depend on the processing

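All member probes were above background in all samples, so no member was dropped for weak signal. Per sample, 73.8% to 89% of all probes passed this cut-off. The other filters and the offset before normalization changed how dim signal entered the fit. In NCL after BTZ, for example, the adjusted p (limma) was 0.0530 in the main fit and 0.0578 without a filter. It was 0.0323 with probes above background in all samples and 0.0373 with the offset. Other effects of dim signal were not tested. With 1 to 3 samples per group, the counts of calls moved with the processing, and so did the fold changes of some genes. Over all alternatives, the log2 fold change in CEM/BTZ7 against CEM/WT_BTZ ranged from 0.92 to 3.17 in MYC and from 0.74 to 2.30 in NCL. That of RRS1 stayed within 1.30 to 1.54. After BTZ in CEM/WT, 12 members were called, 3 when only the groups compared were fitted, and 0 to 14 when 1 replicate was left out, with a median log2 fold change of -0.95 to -0.68. In CEM/BTZ7 against CEM/WT_BTZ, 20 were called, 12 under 75th percentile scaling, and 6 to 17 when 1 replicate was left out (median 0.85 to 1.16). The shares of all genes called under these alternatives are not given here. None of the 12 calls held in every fit that left out a replicate, and 5 of the 20 did (MYC, FBL, RRS1, PUS7 and BYSL), of which all but FBL held under every alternative run.

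As numbered in the intensity table, samples of equal replicate number deviated alike. With the replicate block, 22 members were called after BTZ and 1 in CEM/BTZ7 against CEM/WT, and 24 (23 higher, 1 lower) in CEM/BTZ7 against CEM/WT_BTZ. The block raised the calls across the array as well. It called 20.7% of all genes lower after BTZ, and 23.1% higher and 20.9% lower in CEM/BTZ7 against CEM/WT_BTZ. With CEM/BTZ7 numbered by the value table, an alternative chosen after seeing the data, the counts were 1, 0 and 12 with the block, and 10, 0 and 17 without it, so the calls added by the block depend on that numbering. So numbered, the block called 1.54% of all genes lower after BTZ, and 6.78% higher and 5.74% lower in CEM/BTZ7 against CEM/WT_BTZ. The shares of all genes without the block are not given here. The block was not fitted for the groups with 1 sample.

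When 1 replicate was left out, the number called in CEM/BTZ7, CEM/BTZ100 and CEM/BTZ200 against CEM/WT and in CEM/BTZ200 against CEM/BTZ-200 was 0 throughout, and in CEM/BTZ-200 against CEM/WT 0 to 1. The members' medians then ranged from -0.20 to 0.17 for CEM/BTZ7, -0.01 to 0.17 for CEM/BTZ100, 0.02 to 0.30 for CEM/BTZ200 and -0.27 to -0.10 for CEM/BTZ-200, each against CEM/WT, and from 0.082 to 0.35 for CEM/BTZ200 against CEM/BTZ-200. The last was 0.14 without the dye term, and 1 member was called there with an offset before normalization. The median of CEM/BTZ-200 against CEM/WT turned to 0.11 under 75th percentile scaling. The log2 fold change of MYC in CEM/BTZ-200 against CEM/WT ranged from -0.28, without CEM/WT replicate 2, to 0.56 when 1 replicate was left out, and in CEM/BTZ200 against CEM/BTZ-200 it turned to -0.066 with the mean of probes. The causes were not tested.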
